A study of Mus musculus with 6 samples.

Results

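The homeobox and POU patterning factors are transcription factors that divide the embryonic brain into regions and keep a regional identity in the stem cells that persist in the adult. A list of 42 symbols, put together by gene family, was looked up in the expression tables of cultured neural stem cells. Of these, 38 were found among the 17006 genes of the tables and 4 (Dlx5, Dlx6, Emx1 and Nkx6-1) are not analysed here. The cultures were primary neural stem cells of C57BL/6 mice, taken from the subventricular zone, a layer along the lateral ventricles where neurons are born in adult life. The aged group consisted of 3 libraries from mice of 15 to 18 months and the young group of 3 libraries from mice of 2 months. Dissected tissue of 5 mice had been pooled for dissociation, and the cells were held in a proliferation medium before total RNA was taken, so all 6 libraries describe proliferating cultures and not the tissue. No genetic change or treatment is given for either group. The labels do not say whether the 3 libraries of a group came from separate cultures, so p-values measure the spread between these libraries, which may be technical.

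Homeobox proteins bind DNA through a homeodomain, whose usual core site reads TAAT, and POU proteins pair a homeodomain with a second, POU-specific domain. In the forebrain, GSX and DLX factors and NKX2-1 mark the ventral part that gives rise to inhibitory neurons, whereas EMX, PAX6 and LHX2 mark the dorsal part that gives rise to cortex. MEIS, PBX and TGIF proteins form the TALE class, which binds DNA beside other homeodomain proteins or represses transcription, and HOX clusters pattern the hindbrain and spinal cord. Progenitors of the adult subventricular zone are known to keep such dorsal and ventral codes and to supply olfactory bulb neurons and some oligodendrocytes.

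Promoter sequences of 4 members are shown because the results turn on them. Hlx and Barhl2 are the members that passed the test between ages, Gsx1 was the most abundant ventral factor and Pou3f3 the most abundant member. Each run covers 250 bases before to 50 bases after the annotated start (RefSeq, GRCm38.p6, the assembly also called mm10) and reads 5′ to 3′ on the gene's strand. The windows are chr1:184732444-184732743 on the minus strand for Hlx, chr5:106458117-106458416 on the minus strand for Barhl2, chr5:147188446-147188745 on the plus strand for Gsx1 and chr1:42695518-42695817 on the plus strand for Pou3f3. Capitals mark the homeodomain core TAAT, its palindromic extension TAATTA (which holds the core on both strands), the POU octamer ATGCAAAT and the TALE motif TGACAG on either strand.
Hlx: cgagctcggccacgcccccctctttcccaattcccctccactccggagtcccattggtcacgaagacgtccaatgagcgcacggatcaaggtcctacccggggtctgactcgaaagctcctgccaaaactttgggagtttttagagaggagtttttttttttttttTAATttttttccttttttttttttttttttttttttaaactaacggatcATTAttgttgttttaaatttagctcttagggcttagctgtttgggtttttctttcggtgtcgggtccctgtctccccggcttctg
Barhl2: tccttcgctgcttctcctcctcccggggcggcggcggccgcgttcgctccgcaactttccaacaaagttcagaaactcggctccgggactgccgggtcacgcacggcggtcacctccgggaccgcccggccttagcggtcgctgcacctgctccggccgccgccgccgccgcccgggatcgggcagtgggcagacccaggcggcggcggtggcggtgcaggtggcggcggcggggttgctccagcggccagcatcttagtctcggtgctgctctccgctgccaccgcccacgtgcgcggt
Gsx1: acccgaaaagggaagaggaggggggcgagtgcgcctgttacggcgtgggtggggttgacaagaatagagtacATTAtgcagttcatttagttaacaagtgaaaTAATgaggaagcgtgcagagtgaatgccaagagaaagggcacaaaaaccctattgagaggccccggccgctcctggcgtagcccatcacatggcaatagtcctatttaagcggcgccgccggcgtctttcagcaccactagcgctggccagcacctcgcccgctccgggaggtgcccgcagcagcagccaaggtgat
Pou3f3: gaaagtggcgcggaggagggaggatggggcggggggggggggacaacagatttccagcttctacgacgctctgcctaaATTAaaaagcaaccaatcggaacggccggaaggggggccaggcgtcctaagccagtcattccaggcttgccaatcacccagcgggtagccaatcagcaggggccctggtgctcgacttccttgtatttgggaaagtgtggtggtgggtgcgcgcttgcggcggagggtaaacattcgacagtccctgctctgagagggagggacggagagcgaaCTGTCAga
The Hlx and Gsx1 windows each held 2 TAAT cores, the Pou3f3 window held 1 TAAT core and 1 TGACAG, and the Barhl2 window held none of the 4 motifs. A promoter was found for 34 of the 38 members (not for Otx1, Pbx3, Pou3f1 and Zfhx4), taking the first window listed per gene. TAAT occurred in 18 of these 34 windows (52.9%), against 58.3% of the 27025 windows in the table. TAATTA occurred in 3 (8.82%, against 5.31%), the windows of Barhl1, Otx2 and Emx2. TGACAG occurred in 4 (11.8%, against 19.3%), and ATGCAAAT in 0 of 34, against 1.75% of all windows. The median GC content was 63.1% in members' windows and 52.7% in all windows.

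The libraries were similar in depth and overall profile. Values are FPKM, the authors' count of fragments per kilobase of transcript scaled to library size, and low values came in steps that place the libraries at about 5280000 to 5480000 counted reads. Each table row was above 0 in at least 1 library. Of 7 stem cell markers, 6 had a mean of at least 10 FPKM, and Prom1 was low at 1.47 FPKM. The most abundant included Fabp7 at 2740.9 FPKM, Nes at 266.7 FPKM and Sox2 at 176.2 FPKM, as means over the 6 libraries. Defining markers of mature neurons, myelin, microglia and endothelium were near 0, with Stmn2 at 0.0167 FPKM, Mog at 0.055 FPKM, Ptprc at 0.0133 FPKM and Pecam1 at 0.0583 FPKM.

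The cultures expressed a mixed forebrain code carried by a few genes of each family. Among the 38 members, 14 had a mean of at least 10 FPKM and 11 had a mean under 1 FPKM. Since FPKM is divided by transcript length, these levels can be set side by side between genes. Summed over all members, the level was 439.4 to 443.3 FPKM in aged and 441.5 to 449.9 FPKM in young libraries. HOX genes, by contrast, were nearly silent: 8 of 39 were in the tables, and their sum was 0.08 to 0.44 FPKM in aged and 0.08 to 0.48 FPKM in young libraries, with Hoxa13, Hoxb4, Hoxc8, Hoxb9, Hoxa5 and Hoxc10 the highest.

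**Figure D1:**
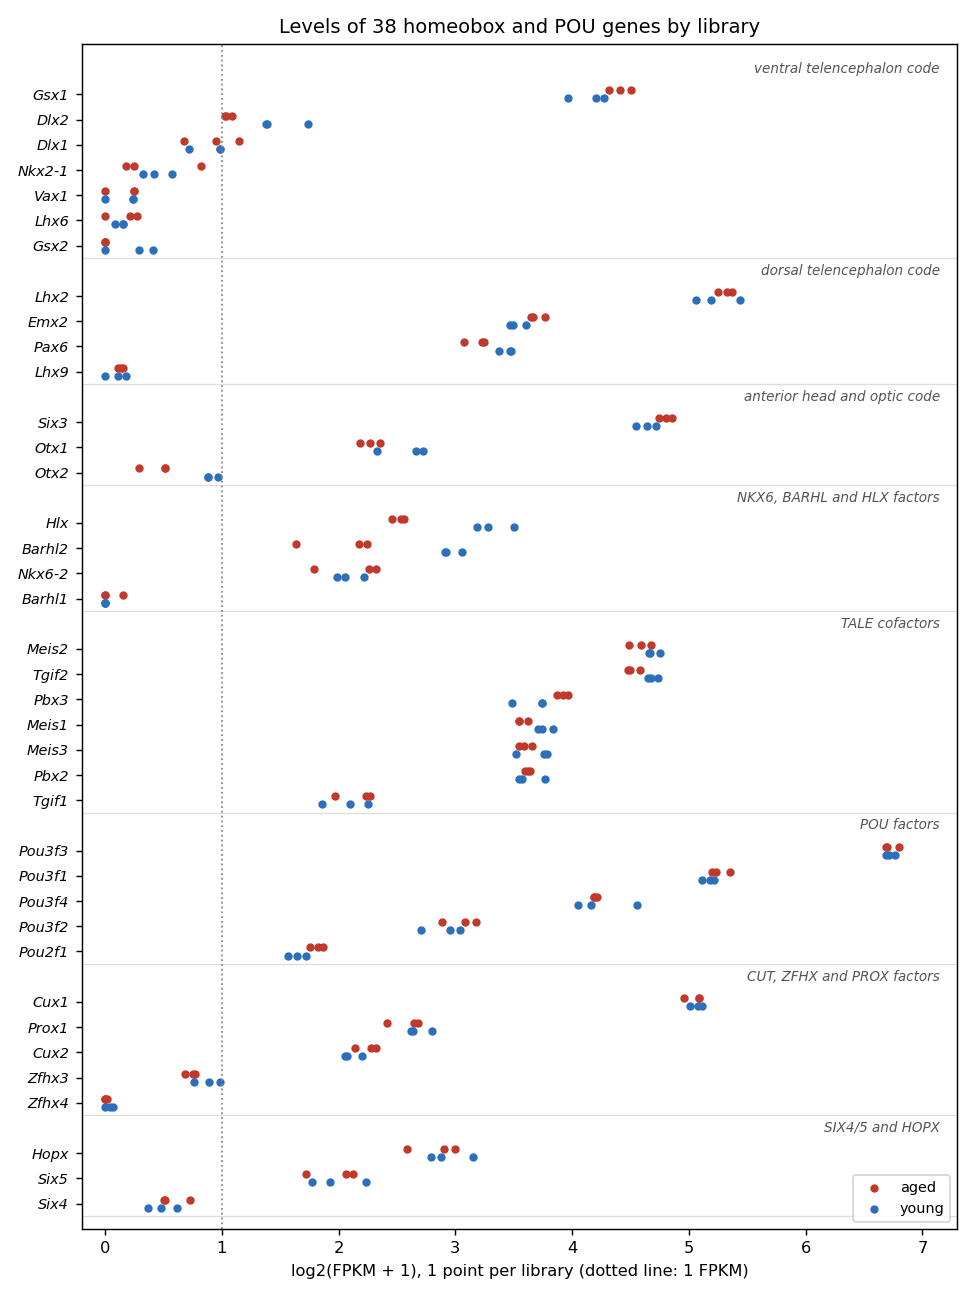
Level of each of the 38 members as log2(FPKM + 1) on the x axis, with 1 point per library, aged (red) above young (blue), grouped by class and ordered by mean. Pou3f3 stood highest at a mean of 104.8 FPKM, and 11 members lay left of the dotted line at 1 FPKM.

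Aged against young cultures asks how donor age alters these codes, and the members that changed were Hlx and Barhl2, both lower in aged libraries. In bulk RNA, fewer cells that express a gene and less of its RNA per cell cannot be told apart. The test was limma on log2(FPKM + 1) over the 11912 genes that averaged 1 FPKM or more, with Benjamini-Hochberg adjustment over all of them and a threshold of 0.05. Of 27 members that passed this filter, 2 fell, 0 rose and 25 did not pass. Over all tested genes, 0.722% were called (0.395% lower and 0.327% higher in aged libraries). At an unadjusted p under 0.05, 7 members were lower and 4 were higher, 40.7% of the 27, against 11.9% of all tested genes. Groups did not overlap for 11 of the 27 members (6 lower and 5 higher in aged libraries), against 17.6% of all tested genes (8.58% lower and 8.98% higher). The median log2 change of the 27 was -0.008 (0.003 over all tested genes) and the median absolute log2 change was 0.14 (0.07 over all). The symbols were put together with earlier results of these data known, so their counts are a description and no independent evidence.

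POU factors made up the largest share. Pou3f3 (Brn1), a regulator of cortical progenitors and upper-layer neurons, was at 102.10, 102.97 and 110.19 FPKM in aged libraries, against 107.85, 103.68 and 102.30 FPKM in young libraries. Its groups overlapped, and the log2 change of FPKM + 1, aged minus young, was 0.006 with a 95% interval of -0.088 to 0.10. Pou3f1 (Oct6), best known from myelinating Schwann cells, was at 35.74, 39.91 and 36.64 FPKM in aged and 35.35, 33.67 and 36.17 FPKM in young libraries, which also overlapped. Pou3f3 supplied 62.9% ± 1.78 of the summed Pou3f1 to Pou3f4 level in aged and 63.6% ± 1.86 in young libraries (SD, n = 3 each). Pou3f4 (Brn4), which acts in inner ear and striatal development, averaged 17.3 ± 0.208 FPKM in aged and 18.3 ± 3.69 FPKM in young libraries, and its young spread came from replicate 2 at 22.50 FPKM. Pou3f2 (Brn2), a close relative of Pou3f3, averaged 7.29 and 6.50 FPKM. The broadly expressed octamer-binding factor Pou2f1 was at 2.53, 2.65 and 2.38 FPKM in aged and 1.96, 2.30 and 2.13 FPKM in young libraries, so the groups did not overlap, but it did not pass (limma adjusted p = 0.628). Its exons overlap those of the opposite-strand gene Cd247, at 3.41 to 4.72 FPKM in aged and 3.58 to 4.98 FPKM in young libraries, above Pou2f1 itself, and without a known strand setting their reads cannot be told apart. None of the 5 POU members passed the limma test, and 0 had an unadjusted p under 0.05, and the summed level was 169.7 ± 4.05 FPKM in aged and 166.6 ± 2.58 FPKM in young libraries (SD, n = 3 each). Outside the list, Pou6f1 was the other abundant POU gene, at 17.9 ± 0.439 FPKM in aged and 17.3 ± 1.79 FPKM in young libraries, and 7 of the 9 other POU genes in the tables had means under 1 FPKM.

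The dorsal code was led by Lhx2, a LIM-homeodomain selector of cortical identity, at 40.29, 39.19 and 36.99 FPKM in aged and 42.40, 32.46 and 35.42 FPKM in young libraries. Young replicate 1 was the highest and young replicate 2 the lowest of all 6, so the groups overlapped. Emx2, which sets the size of cortical areas, was at 12.65, 11.52 and 11.66 FPKM in aged and 11.20, 10.27 and 10.09 FPKM in young libraries, with every aged value above every young value. The opposite-strand gene Emx2os shares exonic sequence with Emx2, so their reads cannot be told apart without a known strand setting. Emx2os was at 1.11, 1.52 and 1.1 FPKM in aged and 0.82, 0.9 and 1.02 FPKM in young libraries, also without overlap (limma adjusted p = 0.636). Pax6, which promotes cortical and olfactory bulb neurogenesis, was lower in every aged library, at 8.35, 8.49 and 7.42 FPKM in aged and 10.08, 10.16 and 9.38 FPKM in young libraries. Neither Emx2 nor Pax6 passed the test over all genes (limma adjusted p of 0.392 and 0.219, log2 changes of 0.17 ± 0.07 and -0.26 ± 0.08, SE). The ratio of Emx2 to Pax6, a pair picked after its values were seen and so not tested, was 1.48 ± 0.111 in aged and 1.07 ± 0.0509 in young libraries (SD, n = 3 each). Lhx9, a close relative of Lhx2, lay at 0.08 to 0.11 FPKM in aged and 0 to 0.13 FPKM in young libraries.

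The ventral code rested almost wholly on Gsx1. This factor of ventral progenitors was at 20.24, 18.91 and 21.70 FPKM in aged and 18.37, 17.42 and 14.57 FPKM in young libraries, higher in every aged library than in any young one (log2 change 0.26 ± 0.09, SE; limma adjusted p = 0.286). It supplied 88.6% ± 2.6 of the summed ventral level in aged and 82.7% ± 4.35 in young libraries (SD, n = 3 each). Its paralog Gsx2, the better known regulator of ventral progenitors, was listed at 0 in all 3 aged libraries and at 0.22, 0 and 0.33 FPKM in young libraries. At Gsx2, 1 read is worth about 0.112 FPKM, so these values stand for a few reads and the difference could not be resolved at this depth. Dlx2, which drives the inhibitory neuron programme downstream of GSX factors, was at 1.12, 1.05 and 1.04 FPKM in aged and 1.61, 1.6 and 2.34 FPKM in young libraries. All 3 aged values were below all 3 young ones, on an estimated 14 and 25 reads, and the gene did not pass (log2 change -0.45 ± 0.15, SE; limma adjusted p = 0.270). Dlx1, its neighbour in the genome and partner in function, was at 0.93, 1.21 and 0.60 FPKM in aged and 0.65, 0.98 and 0.98 FPKM in young libraries and overlapped between the ages. The opposite-strand gene Dlx1as shares exonic sequence with Dlx1, at 0.4 to 0.6 FPKM in aged and 0.26 to 0.59 FPKM in young libraries. Nkx2-1, which specifies the medial ventral forebrain, lay at 0.13 to 0.77 FPKM in aged and 0.25 to 0.49 FPKM in young libraries. Its target Lhx6, a factor of migrating inhibitory neurons, did not exceed 0.21 FPKM, and Vax1, a ventral forebrain and optic factor, did not exceed 0.19 FPKM in any library. The ratio of Gsx1 to Dlx2, also picked after its values were seen, was 19.0 ± 1.63 in aged and 9.51 ± 2.85 in young libraries (SD, n = 3 each). In sum the dorsal level was 2.58 ± 0.187 times the ventral level in aged and 2.83 ± 0.222 times in young libraries (SD, n = 3 each), which overlapped.

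**Figure D2:**
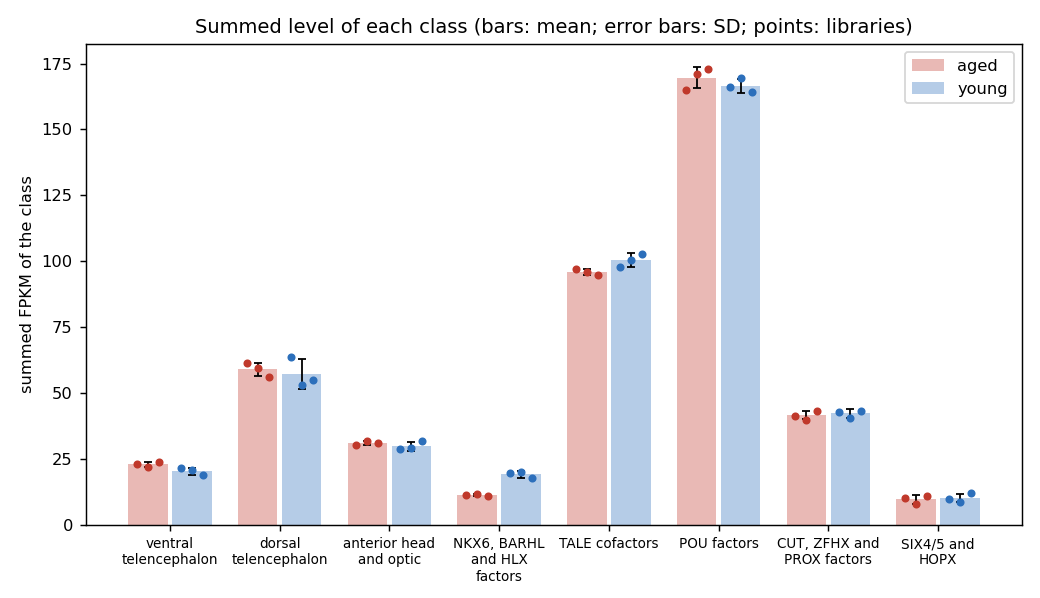
Summed FPKM of the members of each class on the y axis, with bars for the mean of 3 libraries, error bars for the SD and points for libraries, aged (red) left of young (blue). The NKX6, BARHL and HLX class was at 11.3 FPKM in aged and 19.1 FPKM in young libraries, while POU factors were near 170 FPKM in both.

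Anterior head factors were led by Six3, which protects the forebrain from WNT signals. It was at 25.84, 27.87 and 26.94 FPKM in aged and 22.40, 24.00 and 25.29 FPKM in young libraries, again without overlap but without passing (log2 change 0.16 ± 0.06, SE; limma adjusted p = 0.310). An antisense transcript, Six3os1, shares exonic sequence with Six3 and was at 42.83, 39.73 and 43.45 FPKM in aged and 44.99, 38.4 and 39.57 FPKM in young libraries. The strand setting of the authors' counting is not given in the sources used here, so reads of the pair cannot be told apart. Otx1, a rostral brain factor of cortical progenitors, was at 4.12, 3.82 and 3.53 FPKM in aged and 5.35, 4.02 and 5.61 FPKM in young libraries. Young replicate 2 fell inside the aged range, and the limma adjusted p was 0.379. Otx2, a rostral factor that in the adult brain is prominent in choroid plexus, was at 0.43, 0.22 and 0.43 FPKM in aged and 0.84, 0.95 and 0.84 FPKM in young libraries. These groups did not overlap, but they stand on an estimated 3.32 and 8.31 reads per library, under the filter of a mean of 1 FPKM, and with no filter the limma adjusted p was 0.131. Of 8 markers of ependymal and choroid plexus cells, 6 were in the tables, and Ttr and Folr1 were not. The 6 summed to 24.2 to 29.3 FPKM in aged and 21.4 to 26.1 FPKM in young libraries. Enpp2 and Foxj1 made up most of this sum, while Ccdc153, Hydin and Tmem212 had means over the 6 libraries of 0.943, 0.085 and 0.0433 FPKM. Of the 2 tested, 0 were called by limma and 1 had an unadjusted p under 0.05. Enpp2 was at 15.1 ± 0.963 FPKM in aged and 11.6 ± 1.53 FPKM in young libraries (SD, n = 3 each; groups apart, limma adjusted p = 0.181), and the ciliated cell factor Foxj1 was at 10.1 and 11.8 FPKM and overlapped. The choroid gene Kcnj13 was listed at 0 in all 3 aged libraries and had a mean of 0.0467 FPKM in young libraries, an estimated 0.324 reads. At Kcnj13, 1 read is worth about 0.146 FPKM, so the difference could not be resolved at this depth. The part of these cells in the Otx2 values was not tested.

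Hlx (gene 15284, chromosome 1, 184727143 to 184732493), a homeobox gene known for the growth of liver and gut through the mesenchyme, was at 4.89, 4.49 and 4.78 FPKM in aged libraries, against 8.73, 10.31 and 8.07 FPKM in young libraries. The aged libraries lay close together and far below the lowest young one. Its mean was 4.72 ± 0.207 FPKM in aged and 9.04 ± 1.15 FPKM in young libraries (SD, n = 3 each), 0.522 times the young mean, from an estimated 57.1 and 112.4 reads. Its log2 change came to -0.81 ± 0.10 (SE, 95% interval -1.03 to -0.58), with a limma adjusted p of 0.0107. The call was kept with any 1 library left out (adjusted p 0.0223 to 0.0483) and under 3 other scalings, but not without limma's trend (0.0566) or with the replicate number as a block (0.0643).

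Barhl2 (gene 104382, chromosome 5, 106452523 to 106458166), which acts in the diencephalon and in retinal amacrine and spinal cord neurons, was at 3.74, 3.52 and 2.10 FPKM in aged libraries, against 7.32, 6.59 and 6.52 FPKM in young libraries. Aged replicate 3 was the lowest, and every aged value was below every young one. Its mean was 3.12 ± 0.890 FPKM in aged and 6.81 ± 0.443 FPKM in young libraries (SD, n = 3 each), 0.458 times the young mean, from an estimated 38.3 and 86.0 reads. Its log2 change came to -0.95 ± 0.16 (SE, 95% interval -1.31 to -0.59), with a limma adjusted p of 0.0387. That call was lost when any library other than aged replicate 3 was left out (adjusted p 0.0530 to 0.182), with no filter (0.105), without the trend (0.126) and with the block (0.0668), while the log2 change stayed between -1.14 and -0.55.

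**Figure D3:**
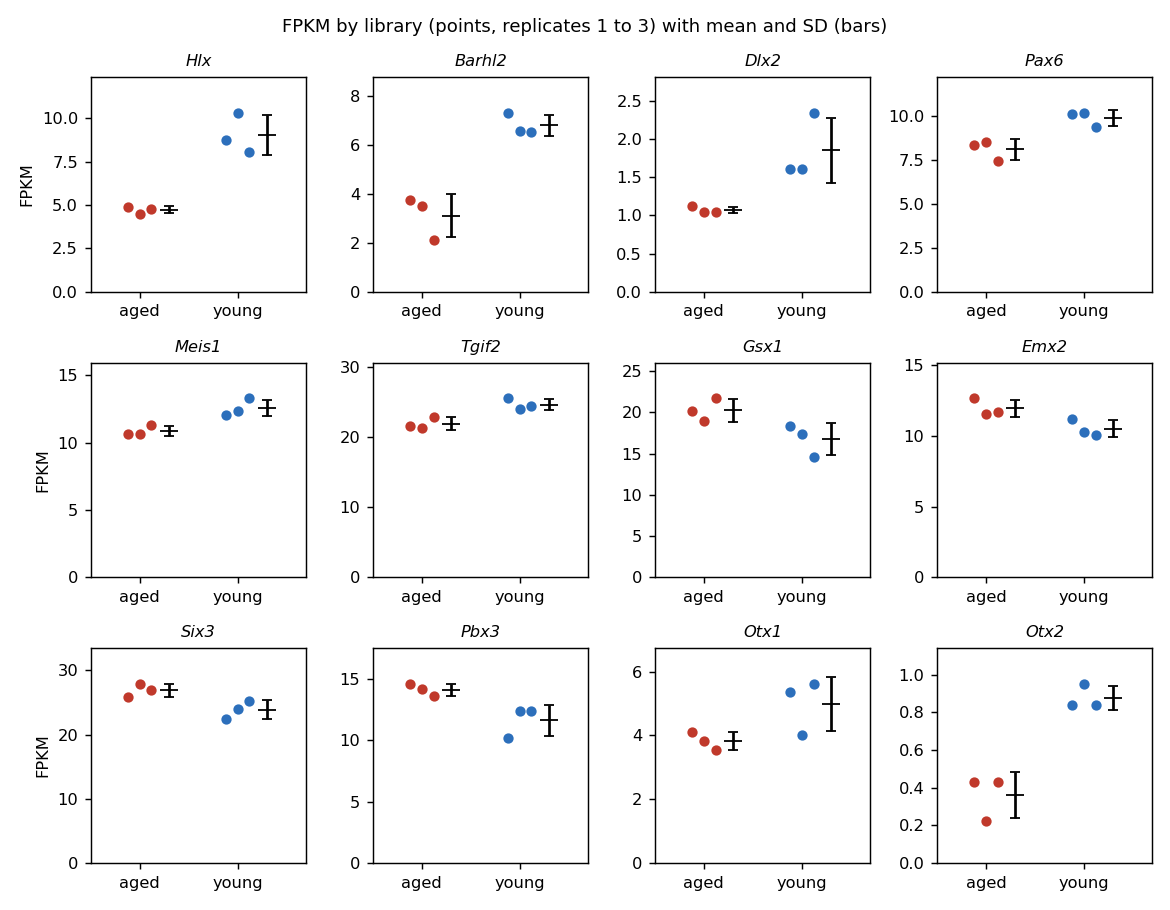
FPKM of 12 members in each library (y axis, from 0; points are replicates 1 to 3), with the mean and SD as bars, aged (red) left of young (blue). Hlx and Barhl2 show wide gaps between the groups, Otx1 overlaps, and Gsx1, Emx2, Six3 and Pbx3 were higher in all aged libraries.

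Barhl1 and Nkx6-2 are the remaining members of that class in the tables. Barhl1, a paralog of Barhl2 that acts in cerebellar granule and inner ear hair cells, was listed at 0 in 5 of the 6 libraries and at 0.11 FPKM in aged replicate 1. Nkx6-2, a ventral neural tube factor that also acts in oligodendrocyte development, was at 2.45, 3.78 and 3.99 FPKM in aged and 3.64, 3.16 and 2.97 FPKM in young libraries and overlapped (log2 change 0.034, 95% interval -0.316 to 0.384). The Nkx6-2 exons share sequence with the opposite-strand gene Inpp5a, which was at 8.7 to 11.22 FPKM in aged and 9.31 to 11.72 FPKM in young libraries. Annotation holds no gene on the opposite strand of Hlx or Barhl2 exons, whereas 12 of the 38 members have one.

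The summed markers of 3 other cell types did not overlap between the ages. Neuroblast and neuron markers (10 of 10 in the tables) summed to 88.7 to 93.3 FPKM in aged and 97.1 to 102.5 FPKM in young libraries, with 5 of them tested. Cd24a carried this sum and fell to 66.0 ± 1.34 FPKM in aged libraries, against 80.7 ± 1.87 FPKM in young libraries (SD, n = 3 each; limma adjusted p = 0.0119), while the other 4 tested markers had positive log2 changes. Dcx, the defining neuroblast marker, was at 0.653 FPKM in aged and 0.350 FPKM in young libraries, and Stmn2 at 0.0333 and 0 FPKM. Oligodendrocyte lineage markers (10 of 10 in the tables) summed to 2046.4 to 2087.2 FPKM in aged and 1937.4 to 1983.0 FPKM in young libraries, with 0 of 7 tested members called by limma and 4 of them higher at an unadjusted p under 0.05. Fibroblast and pericyte markers (9 of 10 in the tables) summed to 7.33 to 8.35 FPKM in aged and 6.12 to 7.24 FPKM in young libraries, with the defining marker Dcn at a mean of 0.0167 FPKM. Col1a1, a fibrillar collagen gene, rose to 2.46 ± 0.390 FPKM in aged libraries, against 0.423 ± 0.115 FPKM in young libraries (SD, n = 3 each; limma adjusted p = 0.0107). The 2 other tested members of that list were lower on average in aged libraries without passing. Tagln was at a log2 change of -0.45 and Myl9 at -0.16, and the median of the 3 tested members was -0.16. Under the filter, the collagen gene Col1a2 was at 0.633 ± 0.107 FPKM in aged and 0.0133 ± 0.0231 FPKM in young libraries. Its groups were apart, on an estimated 18.0 and 0.388 reads, and with no filter the limma adjusted p was 0.0238. Col3a1 was at 0.13 and 0.02 FPKM, also apart, on an estimated 3.84 and 0.61 reads. Acta2, Rgs5 and Dcn were lower on average in aged libraries and Pdgfrb was higher, each with overlap. Summed astrocyte markers (486.8 to 496.6 FPKM in aged and 490.7 to 496.5 FPKM in young libraries), microglia markers (3.06 to 3.5 and 2.88 to 4.19 FPKM) and endothelial markers (3.39 to 3.63 and 2.29 to 3.97 FPKM) overlapped. Members of these lists differed in sign within the sum. Of 7 tested astrocyte markers, 0 were called by limma and 5 had an unadjusted p under 0.05. Groups did not overlap for 4 that were higher in aged libraries and 2 that were lower. Among the higher was Aldoc (log2 change 0.25, limma adjusted p = 0.0601), and the lower were Aldh1l1 (-0.082) and Gja1 (-0.22). For each marker list, the shares over all tested genes were 0.722% called, 11.9% at an unadjusted p under 0.05 and 17.6% with groups apart. Of the endothelial markers, Egfl7 was at 2.56 FPKM in aged and 1.51 FPKM in young libraries (limma adjusted p = 0.147) and Flt1 at 0.467 and 0.930 FPKM. The part of these cell types in the Hlx and Barhl2 values was not tested.

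TALE cofactors were all expressed, 6 of 7 of them at a mean of at least 10 FPKM, and 0 passed the limma test (3 had an unadjusted p under 0.05). Meis2, which works with PAX6 and DLX2 in olfactory bulb neurogenesis, was at 24.54, 23.07 and 21.46 FPKM in aged and 26.01, 24.37 and 24.23 FPKM in young libraries and overlapped. Tgif2, a repressor that restrains TGF-beta and retinoid signalling, was at 21.60, 21.29 and 22.99 FPKM in aged and 25.57, 24.03 and 24.49 FPKM in young libraries. Tgif2 shares exonic sequence with the opposite-strand transcript 5430405H02Rik, at 15.04 to 18.12 FPKM in aged and 14.41 to 15.73 FPKM in young libraries. Meis1, a cofactor of HOX and PBX proteins, was at 10.67, 10.65 and 11.32 FPKM in aged and 12.08, 12.36 and 13.27 FPKM in young libraries. Pbx3, a partner of MEIS proteins, had the opposite sign, at 14.61, 14.17 and 13.60 FPKM in aged and 10.19, 12.38 and 12.41 FPKM in young libraries. For Tgif2, Meis1 and Pbx3 the groups did not overlap, but the limma adjusted p was 0.268, 0.281 and 0.254 with log2 changes of -0.16, -0.19 and 0.26. Meis3, Pbx2 and Tgif1 overlapped between the ages, with means of 11.1, 11.3 and 3.47 FPKM in aged and 12, 11.4 and 3.22 FPKM in young libraries. Over the whole class, the sum was 95.9 ± 1.08 FPKM in aged and 100.4 ± 2.58 FPKM in young libraries (SD, n = 3 each), with each aged sum below each young one.

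**Figure D4:**
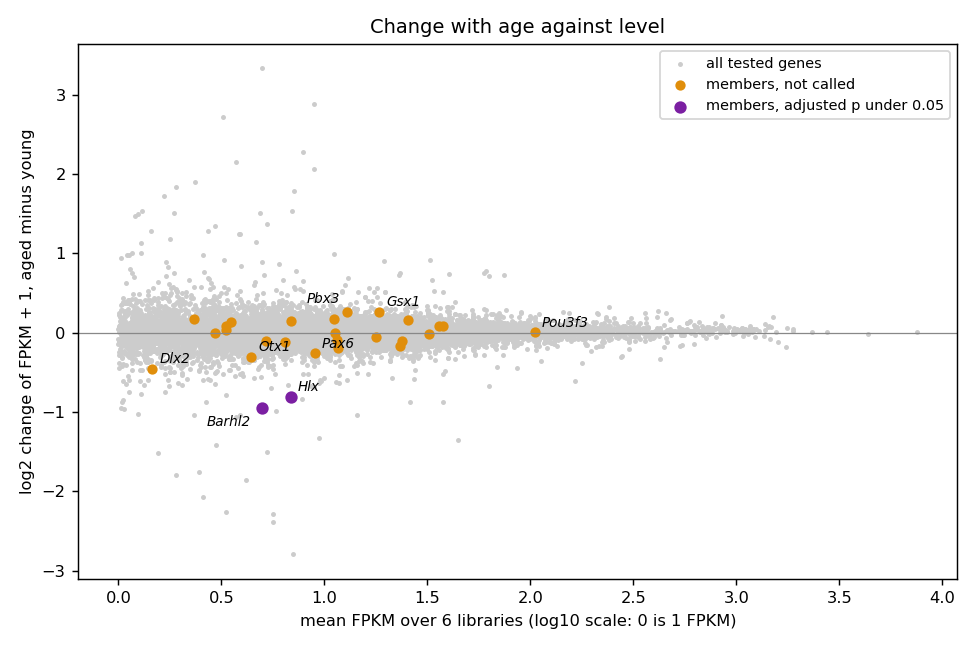
Log2 change of FPKM + 1, aged minus young (y axis), against the mean FPKM over 6 libraries on a log10 scale (x axis), for the 11912 tested genes (grey) and the 27 tested members. Hlx and Barhl2 (purple) lie at -0.81 and -0.95, and the other members (orange) from -0.45 to 0.26.

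For the CUT, ZFHX and PROX factors the groups overlapped at each tested member. Cux1, a widely expressed CUT repressor, was at 32.98, 30.14 and 33.00 FPKM in aged and 33.64, 31.16 and 32.76 FPKM in young libraries (95% interval of the log2 change -0.145 to 0.102). Its paralog Cux2, known from upper-layer neurons and their progenitors, averaged 3.75 ± 0.305 FPKM in aged and 3.32 ± 0.238 FPKM in young libraries (SD, n = 3 each). Prox1, which drives progenitors out of the cell cycle, was at 4.32, 5.25 and 5.40 FPKM in aged and 5.15, 5.22 and 5.98 FPKM in young libraries. These 3 genes overlapped between the ages, as did Zfhx3, a large zinc finger homeobox factor, at 0.61, 0.71 and 0.69 FPKM in aged and 0.85, 0.70 and 0.98 FPKM in young libraries. Zfhx4 did not exceed 0.05 FPKM in any library.

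Hopx, an atypical homeodomain protein that does not bind DNA and marks quiescent stem cells in several tissues, was at 6.47, 5.00 and 6.98 FPKM in aged and 6.34, 5.94 and 7.86 FPKM in young libraries. Aged replicate 2 was the lowest, and the groups overlapped. Six5, a relative of Six3 studied in muscle and eye, was at 3.19, 2.29 and 3.36 FPKM in aged and 2.80, 2.41 and 3.70 FPKM in young libraries. Six4, its relative in muscle development, lay at 0.42 to 0.66 FPKM in aged and 0.29 to 0.53 FPKM in young libraries. The filter of 1 FPKM separated Dlx2, Pou2f1 and Six5, with means over the 6 libraries of 1.46, 2.32 and 2.96 FPKM, from Dlx1, Zfhx3 and Otx2 at 0.892, 0.757 and 0.618 FPKM.

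Other homeobox genes were counted for comparison. Among 124 other homeobox genes, 77 were in the tables, 29 passed the filter and 1 was called. The called gene was Dbx2 (gene 223843, chromosome 15, 95623563 to 95654771), a factor that sets neuron identity in the developing spinal cord. It rose to 49.66, 45.24 and 51.41 FPKM in aged libraries, against 35.14, 39.25 and 36.94 FPKM in young libraries (log2 change 0.38 ± 0.06, SE; limma adjusted p = 0.030). Its groups were well apart, but the call was kept only without aged replicate 2 among the fits that left out 1 library (adjusted p up to 0.135), and it was lost with no filter (0.0686), without the trend (0.135) and with the block (0.128). The other abundant genes of that list did not pass. They included Zeb1 at 76.0 and 77.9 FPKM, Adnp at 38.2 and 41.0 FPKM, Nkx2-2 at 17.5 and 15.6 FPKM, and Zhx3 at 13.9 and 15.4 FPKM, each in aged and then young libraries. Groups did not overlap for 2 of these 29 genes (6.9%, against 17.6% of all tested genes), and the median log2 change was -0.006. The 1 call was 3.45% of the 29, against 0.722% of all tested genes.

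**Figure D5:**
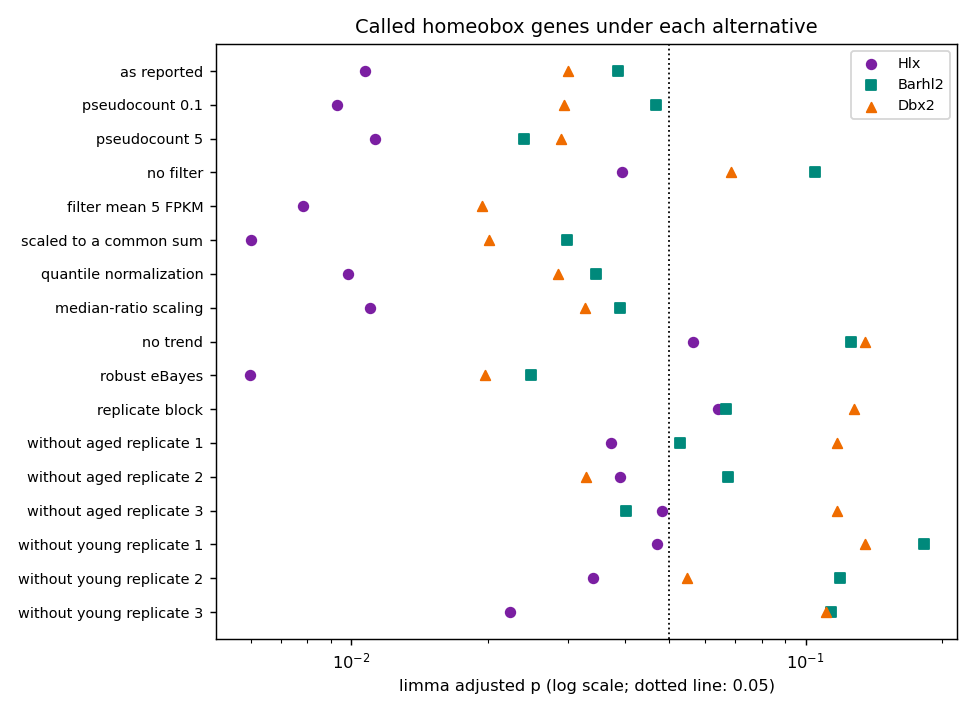
Limma adjusted p (x axis, log scale) of Hlx, Barhl2 and Dbx2 as reported and under 16 alternatives, with 1 row per setting and a dotted line at 0.05. Hlx stayed left of the line in 14 of 16 settings, Barhl2 in 7 of the 15 in which it was fitted and Dbx2 in 8 of 16.

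Among partners and downstream genes of the forebrain codes, limma called 0 of 20 tested genes (33 of 37 in the tables). At an unadjusted p under 0.05, 2 were higher and 1 lower. Over all tested genes, 0.722% were called and 11.9% had an unadjusted p under 0.05. Ldb1, the cofactor that LIM-homeodomain proteins such as LHX2 bind, was at 74.0 FPKM in aged and 73.8 FPKM in young libraries. The zinc finger factor Sall3 was at 54.8 and 56.5 FPKM, the regional nuclear receptor Nr2f1 at 33.4 and 32.7 FPKM and the corepressor Tle4 at 20.2 and 21.4 FPKM in aged and young libraries. Gad1, the enzyme of inhibitory transmitter synthesis that lies downstream of the DLX programme, was at 5.16, 3.58 and 3.65 FPKM in aged and 3.93, 3.25 and 2.75 FPKM in young libraries and overlapped.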

How the data were processed

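Per the labels' protocols, rRNA was removed from 1 ug of total RNA before library construction with reagents from MGI. The authors deposited 1 table per library with a gene-level FPKM of 2 decimals, per the file headers. The submitters' processing notes list TopHat, Cuffdiff and mm10 without versions or roles; annotation, strand setting and normalization between libraries are not given in the sources used here.

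Members were matched by symbol, and coordinates come from RefSeq GRCm38.p6 by gene identifier. FPKM are not counts, so no count test was used. limma 3.58.1 in R 4.3.3 (lmFit, eBayes with a trend, no covariates) was run on log2(FPKM + 1) for genes averaging 1 FPKM or more, as a two-sided test, and checked on simulated data. A fold change on this scale understates that of low genes. Estimated reads use GENCODE transcript lengths and the step that 1 read makes in low values, and are approximate. The members, lists and tests were chosen with earlier results of these data known. Every member is described. Values in each library are given for called members, members with an unadjusted p under 0.05 and groups apart, the 2 most abundant of each class, and those nearest the filter; of the related lists, called and abundant genes are named, except a few that are not reported here. Library values of Gsx2, Nkx6-2 and Gad1 were added after they were seen. Python 3.11.15 with numpy 2.4.6, pandas 2.3.3 and matplotlib 3.10.9 made the tables and figures. Other settings tried were the pseudocount, filter, scaling, limma options, a replicate block and leaving out each library.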

Additional observations from a re-analysis of the deposited data

How the results depend on the processing

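Members called numbered 2 as reported. They numbered 1 with no filter and with a filter of 5 FPKM (where Barhl2 was not fitted), 0 without limma's trend, 0 with the replicate block and 1 to 2 with 1 library left out. Related genes called numbered 1 as reported, 0 with no filter, without the trend and with the block, and 0 to 1 with 1 library left out. Over all genes, 86 were called as reported, 11 without the trend, 22 with the block and 39 to 63 with 1 library left out. Deviations from the group means correlated at 0.008, -0.072 and 0.108 between same-numbered aged and young libraries. Between libraries of unlike number they correlated at -0.109 to 0.111. With 3 libraries per group, these values cannot decide whether same-numbered libraries shared a batch, and the labels give only the number.

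Of 424 member settings, 17 turned the sign, all in members that were not called. Pou3f3 was at -0.008 when scaled to a common sum and -0.006 after quantile normalization. With 1 library left out, log2 changes ranged from -0.051 to 0.021 for Cux1, -0.20 to 0.009 for Hopx, -0.065 to 0.20 for Nkx6-2, -0.048 to 0.060 for Pbx2, -0.028 to 0.028 for Pou3f3, -0.16 to 0.091 for Pou3f4, -0.11 to 0.12 for Six5 and -0.017 to 0.18 for Tgif1. The causes were not tested. Depth limits most members under 1 FPKM, which stand on few reads. Zfhx3 is an exception, with more estimated reads than the called Barhl2 in aged libraries and fewer in young libraries. Dlx1 and Six4 likewise had more estimated reads than the tested Dlx2 in aged libraries and fewer in young libraries.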
